A study of Homo sapiens with 6 samples.

Results

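Serpins are a family of proteins that share a fold and, in most members, trap a protease on an exposed loop. The 9 serpin genes described here are *SERPINA1*, *SERPINA3*, *SERPINB1*, *SERPINB5*, *SERPINB6*, *SERPINB9*, *SERPINE2*, *SERPINH1* and *SERPINI1*, out of 46427 genes in the deposited table. They were found by exact gene symbol, and they were chosen by the genotype comparison itself, because *SERPINA3* was lower in *ZK3*-KO cells while its neighbours on chromosome 14 were higher. The differences of these 9 genes and of those neighbours are therefore a description, and nothing is read from how many of the 9 passed a threshold. All 9 passed the expression filter of edgeR, which kept 18366 genes, as did 6 of the 27 other serpin genes listed, which the choice did not name. *SERPINA5* among them is itself a neighbour of *SERPINA3*, so its difference is a description too.

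HCT116 is a human colon carcinoma line. Parental HCT116 cells (*ZK3*-WT, no edit) were compared with HCT116 cells in which both alleles of *ZKSCAN3* were mutated with CRISPR/Cas9 (*ZK3*-KO), as 3 biological replicates per genotype, and the labels name no other treatment. The guide RNA targeted the first exon of *ZKSCAN3*, a zinc finger gene, and the *ZK3*-KO line was grown from a single cell selected with puromycin, so the edit and other properties of that clone cannot be told apart. In bulk RNA, fewer expressing cells and less RNA per cell cannot be told apart either.

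Between 60827060 and 69739215 reads were counted per library. Levels are given as CPM, a read count scaled to the TMM-normalised library total, or as the deposited FPKM, which are also scaled by transcript length. The 3 values given for a genotype always stand in the order of replicates 1, 2 and 3. *ZKSCAN3* itself had 28.1, 23.4 and 19.8 CPM in the parental libraries and 25.4, 24.9 and 13.6 CPM in the knockout libraries, so the read count of the targeted gene does not check the edit. *ZK3*-KO replicate 3 stood apart, with a correlation of log2 CPM across genes of 0.963 and 0.9496 with the other *ZK3*-KO libraries, against 0.983 to 0.989 among *ZK3*-WT libraries. Where leaving it out moved the log2 fold change of a serpin or of a listed gene named here by over 1.5 times, or changed its call, both values are therefore given. Of the 8 colon epithelium markers, 7 passed the expression filter (*VIL1* did not), with a summed level of 1683 to 2124 FPKM in *ZK3*-WT and 1504 to 2742 FPKM in *ZK3*-KO libraries. The 5 immune markers summed to at most 0.352 FPKM in any library, with *PTPRC* and *CD3E* at 0 reads, and the 4 endothelial markers to at most 0.339 FPKM. The 4 hepatocyte markers summed to between 0.0853 and 0.229 FPKM in *ZK3*-WT and between 0.336 and 0.439 FPKM in *ZK3*-KO libraries, with *TTR* at 0 reads. The 6 fibroblast markers summed to between 7.73 and 9.51 FPKM in *ZK3*-WT and between 5.22 and 14.3 FPKM in *ZK3*-KO libraries, and *COL1A2*, *COL3A1*, *DCN* and *LUM* did not pass the filter. The part of these markers in the differences between the genotypes was not tested.

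Clade A serpins such as α1-antitrypsin (*SERPINA1*) and α1-antichymotrypsin (*SERPINA3*) are secreted, made mainly by the liver and increased in the acute phase, where they restrain neutrophil proteases. Clade B serpins mostly stay inside the cell and protect it from proteases that leak from granules or lysosomes. Other clades regulate plasminogen activators and thrombin, and a few members, among them the collagen chaperone *SERPINH1*, inhibit no protease.

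The promoters differed in their CpG content, and 4 are shown for the serpins on which the description turns: *SERPINA3* and its neighbour *SERPINA5*, *SERPINB9*, the member with the smallest standard error among those that were lower, and *SERPINH1*, whose groups overlapped. The windows are RefSeq promoters of GRCh38.p14, from 250 bases before the start to 50 bases after it, on the strand of the gene. RefSeq windows were found for 11 of the 15 tested serpins described. Capitals mark any match on either strand to a TATA box (TATAAA), a STAT motif (TTCNNNGAA), a C/EBP motif (TTGCNNAA) or a heat shock element (GAANNTTC). The STAT and heat shock motifs share letters and can overlap.
*SERPINA3* (chr14:94612141-94612440, forward strand): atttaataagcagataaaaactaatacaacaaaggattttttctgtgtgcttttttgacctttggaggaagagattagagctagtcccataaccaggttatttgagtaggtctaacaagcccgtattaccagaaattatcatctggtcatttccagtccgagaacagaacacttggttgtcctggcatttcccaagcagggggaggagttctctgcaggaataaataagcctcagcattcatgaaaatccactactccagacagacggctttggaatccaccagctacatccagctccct
*SERPINA5* (chr14:94581176-94581475, forward strand): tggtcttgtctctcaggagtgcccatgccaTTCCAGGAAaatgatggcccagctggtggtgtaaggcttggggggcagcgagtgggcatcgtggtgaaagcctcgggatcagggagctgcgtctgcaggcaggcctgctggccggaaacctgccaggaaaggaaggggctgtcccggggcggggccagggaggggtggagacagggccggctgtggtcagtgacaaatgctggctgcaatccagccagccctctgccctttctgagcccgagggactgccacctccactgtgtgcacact
*SERPINB9* (chr6:2903260-2903559, reverse strand): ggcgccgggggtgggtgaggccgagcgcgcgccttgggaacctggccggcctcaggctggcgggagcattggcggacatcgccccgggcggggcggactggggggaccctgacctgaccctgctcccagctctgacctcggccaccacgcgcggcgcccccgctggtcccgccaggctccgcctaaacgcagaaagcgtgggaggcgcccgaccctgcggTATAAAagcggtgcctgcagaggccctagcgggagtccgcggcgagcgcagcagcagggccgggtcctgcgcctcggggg
*SERPINH1* (chr11:75562003-75562302, forward strand): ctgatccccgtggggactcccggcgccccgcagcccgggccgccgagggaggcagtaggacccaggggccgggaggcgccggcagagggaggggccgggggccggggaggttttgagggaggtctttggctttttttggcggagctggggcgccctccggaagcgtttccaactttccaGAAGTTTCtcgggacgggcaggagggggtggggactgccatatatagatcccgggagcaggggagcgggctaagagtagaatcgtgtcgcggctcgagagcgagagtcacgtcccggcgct

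The *SERPINA3* window held 3 CpG, against a median of 14 over 35116 promoter windows of the same length, and 24.5% of all windows held no more than that. None of the 4 motifs was found in it, which says only that these letters are not in this window. The *SERPINA5* window held 9 CpG and a STAT match at position -220 from the start. The *SERPINB9* window held 35 CpG and a TATA match at position -30, and the *SERPINH1* window 28 CpG and a heat shock match at position -71. RefSeq has another *SERPINH1* window (chr11:75562223-75562522), which holds 28 CpG and none of the 4 motifs. Among all windows, 11.5% held a TATAAA match, 7.66% a STAT match, 10.5% a C/EBP match and 6.77% a heat shock match. The matches are a description of sequence and were not tied to the binding of any factor.

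*SERPINA3* (chr14:95078721-95090392, forward strand, GRCh37) was the serpin with the largest difference among the 9. It encodes an inhibitor of cathepsin G and mast cell chymase. Its reads numbered 88, 167 and 154 in the parental libraries and 13, 0 and 58 in the knockout libraries. These reads correspond to 1.40, 2.38 and 2.203 CPM for *ZK3*-WT and to 0.202, 0 and 0.939 CPM for *ZK3*-KO. Every *ZK3*-KO library lay below every *ZK3*-WT library, and *ZK3*-KO replicate 3 was the closest to them.

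*SERPINA3* mRNA averaged 1.99 ± 0.523 CPM (SD, n = 3) in *ZK3*-WT and 0.380 ± 0.494 CPM (SD, n = 3) in *ZK3*-KO libraries, a ratio of 5.25. All libraries together gave a log2 fold change of -2.40 with a standard error of 1.05, which became -4.31 without *ZK3*-KO replicate 3. Counting error alone allows up to 0.0532 CPM for the library with no read (exact 95% Poisson interval), and it gives 0.713 to 1.21 CPM for *ZK3*-KO replicate 3 and 1.12 to 1.72 CPM for *ZK3*-WT replicate 1, the lowest of the parental libraries. The intervals of these last libraries overlap. PCR reads are not independent molecules, so these intervals cover counting error only.

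*SERPINA1* (chr14:94843084-94857030, reverse strand, GRCh37), which encodes the main inhibitor of neutrophil elastase, showed the same order of *ZK3*-KO libraries. Parental libraries had 5.17, 7.43 and 7.97 CPM, and knockout libraries 2.06, 1.10 and 7.53 CPM. *ZK3*-KO replicate 3 lay inside the parental range, so the groups overlapped. For *SERPINA1* the log2 fold change was -0.95 (standard error 0.64), and -2.12 without *ZK3*-KO replicate 3.

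**Figure D1:**
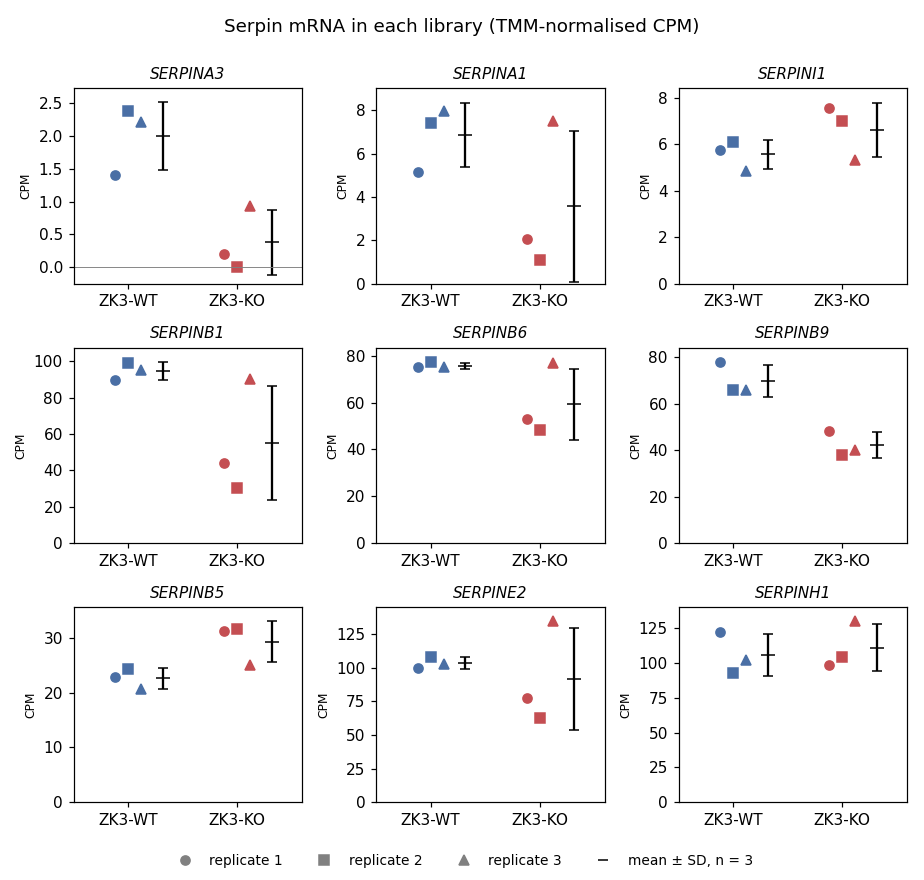
TMM-normalised CPM (vertical axes, each panel on its own linear scale) of the 9 serpins in each library of *ZK3*-WT (blue) and *ZK3*-KO cells (red); marker shapes give the replicate number and bars the mean ± SD (n = 3). The groups do not overlap for *SERPINA3*, *SERPINB9* and *SERPINB5*, and *ZK3*-KO replicate 3 (triangle) lies near or above the parental libraries for *SERPINA1*, *SERPINB1*, *SERPINB6* and *SERPINE2*.

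*SERPINB1*, *SERPINB9* and *SERPINB6* lie side by side on the reverse strand of chromosome 6, and all 3 had a lower mean in *ZK3*-KO cells. *SERPINB1* (chr6:2832566-2842193, GRCh37), an inhibitor of neutrophil elastase, cathepsin G and proteinase 3, had 89.8, 99.3 and 95.4 CPM in parental and 44.3, 30.3 and 90.5 CPM in knockout libraries. *ZK3*-KO replicate 3 lay within the parental range and the other libraries lay far below it. *SERPINB1* differed by -0.78 on the log2 scale (standard error 0.37), and by -1.34 without *ZK3*-KO replicate 3.

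*SERPINB9* (chr6:2887504-2903543, GRCh37) encodes the inhibitor of granzyme B, with which cytotoxic cells kill their targets. Its level was 77.9, 65.9 and 65.8 CPM in parental and 48.4, 38.0 and 40.2 CPM in knockout libraries. The groups did not overlap, and *ZK3*-KO replicate 3 lay between the other *ZK3*-KO libraries. On average *SERPINB9* reached 69.9 ± 6.94 CPM (SD, n = 3) in *ZK3*-WT and 42.2 ± 5.46 CPM (SD, n = 3) in *ZK3*-KO libraries. Its log2 fold change was -0.73 (standard error 0.16), and -0.69 without *ZK3*-KO replicate 3. It stayed between -0.83 and -0.64 over the 14 alternative fits. Its pseudogene *SERPINB9P1* (chr6:2851464-2881641, GRCh37, named after its values were seen) can share reads with it. The pseudogene had 1.16, 1.17 and 1.06 CPM in parental and 0.373, 0.462 and 0.275 CPM in knockout libraries (log2 fold change -1.60).

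*SERPINB6* (chr6:2948393-2972399, GRCh37), an intracellular inhibitor of cathepsin G and trypsin-like proteases, had 75.1, 77.4 and 75.1 CPM in parental and 52.8, 48.3 and 76.8 CPM in knockout libraries. The parental libraries lay close together, and *ZK3*-KO replicate 3 lay among them. For *SERPINB6* the log2 fold change came to -0.36 (standard error 0.19), and to -0.58 without *ZK3*-KO replicate 3.

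*SERPINB5* (chr18:61144191-61172318, forward strand, GRCh37) encodes maspin, an epithelial clade B member that does not act as a protease inhibitor. Its level was higher in *ZK3*-KO cells, with 31.3, 31.6 and 25.1 CPM against 22.8, 24.3 and 20.7 CPM in the parental libraries. The groups did not overlap, and *ZK3*-KO replicate 3 was the closest to the parental libraries. *SERPINB5* differed by 0.38 on the log2 scale (standard error 0.16), and by 0.48 without *ZK3*-KO replicate 3.

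The remaining 3 genes had overlapping groups. *SERPINE2* (chr2:224839762-224904035, reverse strand, GRCh37) encodes protease nexin, an inhibitor of thrombin and urokinase, and had 99.5, 107.8 and 102.5 CPM in parental and 77.1, 62.5 and 134 CPM in knockout libraries. The *ZK3*-KO libraries lay on both sides of the parental ones. For *SERPINE2* the difference on the log2 scale was -0.18 (standard error 0.28), -0.56 without *ZK3*-KO replicate 3 and 0.03 without *ZK3*-KO replicate 2.

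*SERPINH1* (chr11:75273101-75283828, forward strand, GRCh37) encodes HSP47, the chaperone of procollagen in the endoplasmic reticulum. Parental libraries had 122, 93.2 and 102 CPM, and knockout libraries 98.8, 105 and 130 CPM. The ranges of the genotypes overlapped over most of their width. *SERPINH1* differed by 0.07 on the log2 scale (standard error 0.17), and its sign flipped under library totals alone (-0.02), limma on log2(TPM + 1) (-0.05), without *ZK3*-WT replicate 2 (-0.01) and without *ZK3*-KO replicate 3 (-0.05).

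*SERPINI1* (chr3:167453031-167543357, forward strand, GRCh37) encodes neuroserpin, an inhibitor of tissue plasminogen activator. Its level was 5.77, 6.08 and 4.86 CPM in parental and 7.55, 6.995 and 5.31 CPM in knockout libraries. Here too *ZK3*-KO replicate 3 lay among the parental libraries, and the other *ZK3*-KO libraries lay above them. *SERPINI1* differed by 0.25 on the log2 scale (standard error 0.22), and by 0.39 without *ZK3*-KO replicate 3.

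Of the 9 genes, 6 had a lower and 3 a higher mean CPM in *ZK3*-KO cells. For 3 of them the libraries of the genotypes were fully separated, as they were for 26.6% of all tested genes. In the quasi-likelihood test of edgeR at an FDR of 0.05, 0 of the 9 passed, whereas 2.05% of all genes passed and 1.23% passed with a lower level in *ZK3*-KO cells. An unadjusted p-value under 0.05 was reached by 2 of the 9 and by 18.4% of all genes. DESeq2 called 1 of the 9 and 8.20% of all genes, and limma called 0 of the 9 on log2(CPM + 1), with 2.30% of all genes, and 0 on log2(TPM + 1), with 2.08%. In edgeR 6 of the 9 passed without *ZK3*-KO replicate 3, with 15.1% of all genes. The genotype comparison chose these genes, so these counts are no test of them.

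The level per transcript length differed widely among the members. In *ZK3*-WT cells, *SERPINH1* was the highest with 47.6 ± 6.26 FPKM (SD, n = 3), followed by *SERPINE2* with 44.2 ± 4.22 FPKM and *SERPINB6* with 41.2 ± 1.22 FPKM. The ranges of neighbours overlapped among these 3 genes. Below them, the ranges of neighbours in the order were apart. *SERPINB1* had 35.0 ± 2.26 FPKM, *SERPINB9* 15.7 ± 1.45 FPKM and *SERPINB5* 8.16 ± 0.826 FPKM. The lowest were *SERPINI1* with 3.18 ± 0.415 FPKM, *SERPINA1* with 2.08 ± 0.495 FPKM and *SERPINA3* with 1.18 ± 0.323 FPKM, so the secreted clade A members were the least abundant. In *ZK3*-KO cells the order was the same but for *SERPINB5* (10.0 ± 1.85 FPKM) and *SERPINB9* (8.98 ± 1.43 FPKM), whose ranges overlapped. The ranges of neighbours in that order were apart only between *SERPINB9* and *SERPINI1* and between *SERPINI1* and *SERPINA1*.

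**Figure D2:**
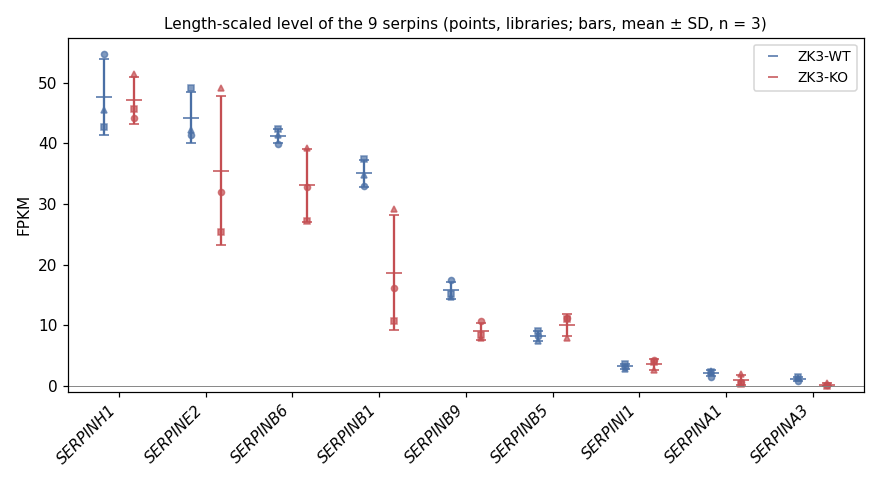
Deposited FPKM (vertical axis, linear) of the 9 serpins in order of their *ZK3*-WT level; points are libraries of *ZK3*-WT (blue) and *ZK3*-KO cells (red), with circle, square and triangle for replicates 1, 2 and 3 and bars for the mean ± SD (n = 3). *SERPINH1*, *SERPINE2* and *SERPINB6* share the top of the order near 47.6 to 41.2 FPKM, and *SERPINA3* is the lowest in both genotypes.

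The neighbours of *SERPINA3* were part of how it was chosen, and their values are given as a description. Within 1 Mb of its start, 16 other genes were tested, of which *SERPINA1* and *SERPINA5* are serpins. Of the 14 other genes, 11 were higher and 3 were lower in *ZK3*-KO cells, with a median log2 fold change of 0.33. All 3 serpins of the window were lower. The groups of 4 of the 14 were apart with the *ZK3*-KO libraries above, and those of *IFI27* and *CLMN* with them below. Groups were apart for 26.6% of all tested genes. Over all 18366 tested genes, the median was 0.02 and 48.3% were lower.

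*DDX24*, an RNA helicase gene at -531 kb, was the neighbour with the largest difference, with 131, 132 and 131 CPM in parental and 284, 358 and 238 CPM in knockout libraries. *GLRX5*, which encodes a mitochondrial glutaredoxin of iron-sulfur cluster assembly, lies at 921 kb on the other side and had 38.6, 39.9 and 38.9 CPM in parental and 66.2, 81.1 and 75.2 CPM in knockout libraries. Neither gene's groups overlapped. The log2 scale differences were 1.16 (standard error 0.18) for *DDX24*, 0.92 (standard error 0.14) for *GLRX5*, and 0.87 (standard error 0.26) for *IFI27L2*. The value was 0.98 for *RPL15P2*, a ribosomal protein pseudogene whose reads are uncertain, 0.65 for *DICER1*, the gene of the microRNA-processing nuclease, 0.50 for *PRIMA1*, 0.49 for *SNHG10*, 0.17 for *SYNE3*, 0.11 for *IFI27L1*, 0.08 for *OTUB2* and 0.03 for *PPP4R4*. The genes that were lower were *IFI27* (-0.47), *CLMN* (-0.30) and *DICER1-AS1* (-0.23). *DICER1* and *DICER1-AS1*, *GLRX5* and *SNHG10*, and *DDX24* and *OTUB2* overlap on opposite strands, and the strand setting of the counting is not stated, so their reads may not be told apart.

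**Figure D3:**
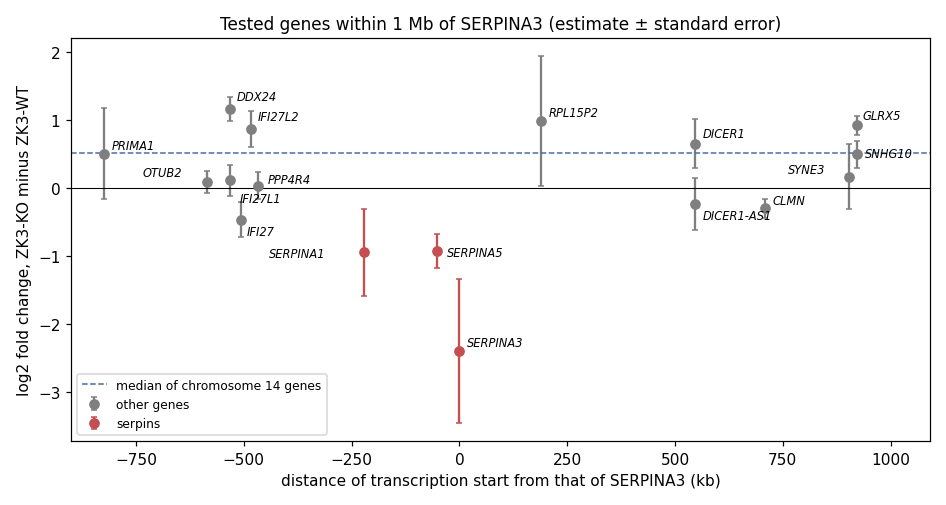
Log2 fold change (*ZK3*-KO minus *ZK3*-WT, vertical axis) of the tested genes within 1 Mb of *SERPINA3* against the distance of their transcription starts in kb; bars are standard errors, serpins are red and other genes grey. *SERPINA3* (-2.40), *SERPINA1* (-0.95) and *SERPINA5* (-0.93) lie below 0, while 11 of the 14 other genes lie above it; the dashed line is the median of chromosome 14 (0.51).

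*SERPINA3* lay 2.73 below the median of these 14 neighbours on the log2 scale. The median of the neighbours relative to their parental mean was 0.31, 0.41 and 0.24 in the knockout libraries, and between -0.04 and 0.07 in *ZK3*-WT libraries. The median was thus higher in each *ZK3*-KO library, *ZK3*-KO replicate 3 included. Over chromosome 14 as a whole, 80.2% of 504 tested genes were higher, with a median log2 fold change of 0.51, the highest among chromosomes 1 to 22 and X. The median of the 14 neighbours was smaller under limma on log2(TPM + 1) (0.0778, where the median of all genes was -0.08), under limma on log2(CPM + 1) (0.156), with the replicate block (0.162) and, over the 13 of them that had at least 10 reads in every library, with that filter (0.154).

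The surroundings of the members on other chromosomes had medians between -0.11 and 0.14, against 0.02 over all tested genes. The median of the genes that are not serpins was 0.02 around *SERPINB1* (19 genes) and 0.04 around *SERPINB6* and *SERPINB9* (20 genes). It was 0.10 around *SERPINB5* (6 genes), 0.05 around *SERPINE2* (6 genes), -0.11 around *SERPINH1* (19 genes) and 0.14 around *SERPINI1* (3 genes). Around *SERPINA1*, the neighbour of *SERPINA3*, it was 0.11 (11 genes).

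Of the 27 other serpin genes listed, 21 stayed below the expression filter, 12 of them with no read in any library. The 6 that were tested had a median log2 fold change of -1.13, with 5 lower and 1 higher. *SERPING1*, which encodes the C1 inhibitor of the complement and contact systems, was the only one of them that edgeR called at an FDR of 0.05, as it called 2.05% of all genes. The expression filter kept *SERPING1* through its reads in *ZK3*-WT libraries alone, so this call and the median of the 6 are a description. Its level was 3.53, 4.17 and 3.79 CPM in parental and 0.109, 0 and 0 CPM in knockout libraries. The transcript fell in every *ZK3*-KO library, *ZK3*-KO replicate 3 among them, with 7 reads left in *ZK3*-KO replicate 1 and none in the others. The difference in *SERPING1* was -6.66 on the log2 scale (standard error 0.88, edgeR FDR 0.0154). Its size depended on the method, at -2.22 under limma on log2(CPM + 1) and -2.38 under limma on log2(TPM + 1). The call was lost when any *ZK3*-WT library was left out (FDR 0.0764 to 0.104 in the same test), with a log2 fold change between -6.72 and -6.60. In these fits 49 to 67 genes passed in all, of 18776 to 18838 tested. Without *ZK3*-KO replicate 1, no read of *SERPING1* was left in *ZK3*-KO cells (FDR 0.0113 in the same test). The log2 fold change was then -11.0, with no *ZK3*-KO read to set its size.

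*SERPINA5* (chr14:95027779-95059455, forward strand, GRCh37), which encodes the protein C inhibitor, is the nearest tested gene to *SERPINA3*. Parental libraries had 6.03, 7.63 and 6.65 CPM, and knockout libraries 3.14, 2.87 and 4.64 CPM. The groups did not overlap. *SERPINA5* differed by -0.93 on the log2 scale (standard error 0.25), and by -1.17 without *ZK3*-KO replicate 3. *SERPINF2*, the gene of α2-antiplasmin, had 4.07, 3.34 and 3.45 CPM in parental and 0.854, 0.764 and 2.43 CPM in knockout libraries. Its groups did not overlap, and its log2 fold change of -1.43 had an FDR of 0.172 in edgeR and 0.0343 in DESeq2. The log2 fold change of *SERPINF2* was -2.15 without *ZK3*-KO replicate 3 (edgeR FDR 0.00223).

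*SERPINF1*, the gene of pigment epithelium-derived factor, had 1.43, 1.20 and 2.10 CPM in parental and 0.574, 0.130 and 1.18 CPM in knockout libraries. Its groups did not overlap, and its difference of -1.33 on the log2 scale had an edgeR FDR of 0.345. It was -2.16 without *ZK3*-KO replicate 3 (edgeR FDR 0.0348). *SERPINF1* passed the expression filter only with its *ZK3*-WT reads, so its values are a description. *SERPINB8*, an inhibitor of furin, varied widely within each genotype, with 7.60, 21.9 and 29.6 CPM against 9.18, 5.25 and 42.3 CPM. Its log2 fold change of -0.06 (edgeR FDR 0.979) was 0.02 to 0.39 when *ZK3*-WT replicate 2 or 3 or *ZK3*-KO replicate 1 or 2 was left out, and -1.45 without *ZK3*-KO replicate 3. *SERPINC1*, the antithrombin gene, was the only one of these with a higher level, at 0.175, 0.128 and 0.272 CPM in parental and 0.497, 0.433 and 0.712 CPM in knockout libraries (log2 fold change 1.501, edgeR FDR 0.137). The expression filter kept *SERPINC1* only with its *ZK3*-KO reads, so its values are a description. For 5 of these 6 genes the groups did not overlap, 4 with the *ZK3*-KO libraries below and *SERPINC1* with them above, and 26.6% of all tested genes had groups that did not overlap. The median of the 6 was -1.80 without *ZK3*-KO replicate 3. Apart from *SERPINA5*, 3 of the other 5 passed in that fit, as did 15.1% of all genes. They were *SERPINF2*, *SERPING1* and *SERPINF1*. *SERPING1* and *SERPINF1* passed the expression filter only with their *ZK3*-WT reads, so this count is a description.

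**Figure D4:**
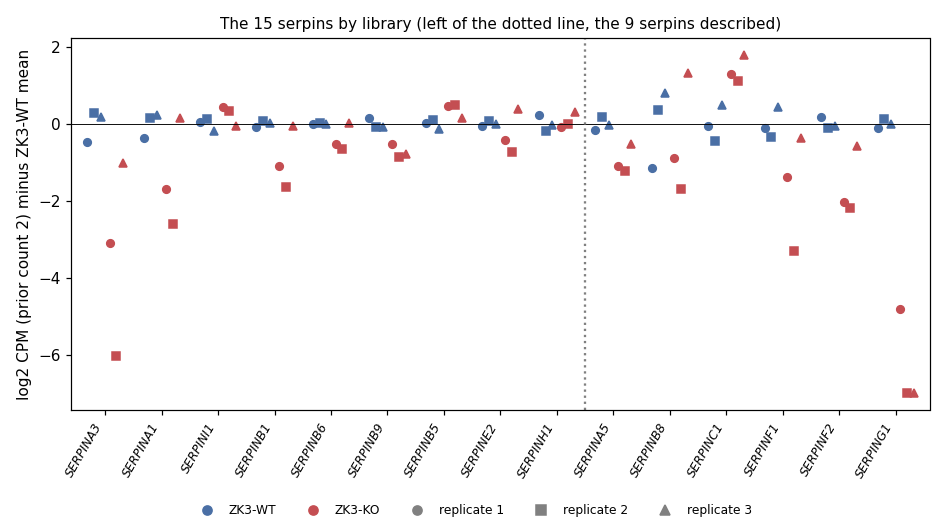
Log2 CPM (prior count 2) minus the *ZK3*-WT mean (vertical axis) of 15 tested serpins in each library of *ZK3*-WT (blue) and *ZK3*-KO cells (red), with circle, square and triangle for replicates 1, 2 and 3; libraries with 0 reads are drawn at the value that the prior count gives. *ZK3*-KO replicate 3 (red triangle) lies above the other *ZK3*-KO libraries for most serpins that are lower, but not for *SERPINB9* or *SERPING1*.

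Across the 6 libraries, the levels of *SERPINA3* were most like those of *CSAD* (Pearson's r of log2 CPM 0.996), *DGAT2* (0.996), *CAPRIN2* (0.995), *TMEM254* (0.994) and *PITPNM3* (0.993), out of 13149 genes whose average log2 CPM was at least 1. As many as 198 genes reached an r of 0.95 or more. Among serpins, *SERPINB1* (0.979), *SERPINF1* (0.972) and *SERPINA1* (0.963) were the most like *SERPINA3*, and *SERPINB5* (-0.88) and *SERPINI1* (-0.73) the most opposed. These 6 points share their libraries and genotypes, so the values are a description. In *ZK3*-KO replicate 2 *SERPINA3* had no read, and the prior count of 2 alone set its log2 CPM there. That point lay at -6.03 relative to the *ZK3*-WT mean, the furthest of the 6, so the correlations lean on it.

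The proteases, receptors and partners of serpins were counted from lists of genes with known roles. Of 30 listed target proteases, 20 were tested and edgeR called 1 at an FDR of 0.05, which was lower (1.23% of all genes were called lower), with a median log2 fold change of 0.13. It was *CASP4*, the inflammatory caspase that *SERPINB1* can restrain, with 19.5, 23.1 and 22.5 CPM in parental and 2.73, 1.95 and 7.14 CPM in knockout libraries. The groups lay far apart. *CASP4* mRNA differed by -2.46 on the log2 scale (standard error 0.47, edgeR FDR 0.0473). Its call was lost in 7 of 14 alternative fits, among them upper-quartile factors (edgeR FDR 0.0515). Without *ZK3*-KO replicate 3, the median of the target proteases was -0.55 and 7 passed, all lower, where 7.73% of all genes passed with a lower level. Of 6 listed receptors that clear serpin-protease complexes, 4 were tested and 0 passed in edgeR (2.05% of all genes) or DESeq2 (8.20%). Limma also called 0 of them, on log2(CPM + 1) (2.30% of all genes) and on log2(TPM + 1) (2.08%). In edgeR 0 of the 4 had an unadjusted p-value under 0.05, where 18.4% of all genes did. Those with the highest FPKM were *PLAUR*, the urokinase receptor (log2 fold change 0.29, edgeR FDR 0.799), and *LRP8* (-0.44, edgeR FDR 0.293). The sign of *PLAUR* rested on single libraries, with -0.52 without *ZK3*-KO replicate 3 and 0.66 without *ZK3*-KO replicate 2. Again 0 of the 4 passed in edgeR's test without *ZK3*-KO replicate 3 (15.1% of all genes), and their median went from -0.18 to -0.28.

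*SERPINH1* works with enzymes that modify procollagen. Of 17 genes of collagen maturation, 16 were tested and 1 passed with a lower level, against 1.23% of all genes. It was *FKBP10*, which encodes a prolyl isomerase and chaperone of procollagen. It had 102, 104 and 120 CPM in parental and 40.6, 34.1 and 61.9 CPM in knockout libraries. Its log2 fold change was -1.26 (standard error 0.23, edgeR FDR 0.0464), while *SERPINH1* had overlapping groups. The call of *FKBP10* was lost in 7 of 14 alternative fits, among them upper-quartile factors (edgeR FDR 0.0513). The median of the 16 genes was -0.20 with and without *ZK3*-KO replicate 3, and 3 passed without it, all lower, where 7.73% of all genes did. Of 12 collagen chain genes tested, edgeR called 0 (2.05% of all genes), and 6 had an unadjusted p-value under 0.05 (18.4% of all genes). DESeq2 called 3 higher and 1 lower (8.20% of all genes in either direction). Without *ZK3*-KO replicate 3 3 passed with a higher and 3 with a lower level in edgeR's test (15.1% of all genes in either direction), and the median went from 0.13 to -0.07. The most abundant were *COL6A2* (log2 fold change -0.54, edgeR FDR 0.457) and *COL6A1* (-0.92, edgeR FDR 0.10). Their values without *ZK3*-KO replicate 3 were -1.07 (edgeR FDR 0.00303) and -1.20 (edgeR FDR 0.00167).

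*SERPINA1* and *SERPINA3* are acute-phase genes. Of 17 other acute-phase products, 7 were tested and 4 had no read, the median log2 fold change was -1.01, and 1 passed in edgeR's test with a lower level (1.23% of all genes). It was *ORM2*, which encodes an orosomucoid nearly identical to that of *ORM1*, so that its reads are uncertain. It had 55 reads over the *ZK3*-WT libraries and 0 in every *ZK3*-KO library, which makes it at least 17.7-fold lower against a floor of 3 counts over the group (edgeR FDR 0.0292, and 0.0633 with the replicate block). The expression filter kept *ORM2* through its *ZK3*-WT reads alone, so its call is a description. That call was lost in 7 of 13 alternative fits. Without *ZK3*-KO replicate 3 the median was -3.59 and 5 of the 7 passed, all lower and *ORM2* among them, where 7.73% of all genes did. With a filter of 10 reads per library the median was 0.93, since that filter removes genes near 0. The count and the medians of this list are therefore a description too. Of the 16 genes of acute-phase signalling, all were tested and 1 passed with a lower level, where 1.23% of all genes did. It was *OSMR*, which encodes the oncostatin M receptor. It had 123, 149 and 146 CPM in parental and 69.3, 71.1 and 85.7 CPM in knockout libraries (log2 fold change -0.88, standard error 0.16, edgeR FDR 0.0392). Its call was lost in 6 of 14 alternative fits. The median of that list was 0.01, and -0.25 without *ZK3*-KO replicate 3, where 1 of the 16 passed with a higher and 5 with a lower level (7.41% and 7.73% of all genes).

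Of 14 heat shock genes, 13 were higher and 1 was lower, where 48.3% of all tested genes were lower. Their median log2 fold change was 0.42 (0.73 without *ZK3*-KO replicate 3). With edgeR 0 passed (2.05% of all genes) and 6 had an unadjusted p-value under 0.05 (18.4% of all genes). DESeq2 called 4 (8.20% of all genes). Limma called 0 on log2(CPM + 1) (2.30% of all genes) and on log2(TPM + 1) (2.08%). Without *ZK3*-KO replicate 3, 8 passed, all higher, where 7.41% of all genes did. *HSP90AB1* (log2 fold change 0.36, edgeR FDR 0.595) and *HSP90AA1* (0.48, edgeR FDR 0.583, on chromosome 14) were the most abundant. The groups of both overlapped. *ZK3*-KO replicate 3 had 2004 CPM of *HSP90AB1*, against 1940 to 3342 CPM in parental libraries. It had 1274 CPM of *HSP90AA1*, against 1606 to 2646 CPM. The log2 fold changes of both were larger without *ZK3*-KO replicate 3, at 0.61 (edgeR FDR 0.0735) and 0.84 (edgeR FDR 0.0243). They were smaller without *ZK3*-KO replicate 2, at 0.17 and 0.14. Of 5 tested liver and gut transcription factors on the list, edgeR called 0 (2.05% of all genes). DESeq2 called 1, which was higher (8.20% of all genes), and 1 had an unadjusted p-value under 0.05 in edgeR (18.4% of all genes). In edgeR's test 1 passed without *ZK3*-KO replicate 3, with a higher level, where 7.41% of all genes did. Those with the highest FPKM were *CDX2* (log2 fold change 0.34, edgeR FDR 0.378, and 0.19 without *ZK3*-KO replicate 3) and *HNF4A* (0.30, edgeR FDR 0.428). Of the 94 tested genes of these lists, 4 passed in edgeR's test over all 6 libraries (2.05% of all genes). Without *ZK3*-KO replicate 3, 36 of the 94 passed (15.1% of all genes). Leaving out any other library left 0 of them past the threshold, in fits where 49 to 158 genes passed in all, of 18776 to 18912 tested.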

How the data were processed

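Polyadenylated RNA of parental and *ZK3*-KO HCT116 cells, 3 cultures per genotype, had been made into stranded libraries and sequenced. The authors deposited a single table that holds, for each gene and library, a raw count of reads, an FPKM value (corrected for transcript length and depth) and a TPM value (corrected for length, with nearly equal library sums). The submitters' processing notes name Bowtie2 2.2.5. The methods name Partek Flow with Ensembl genes on hg19, but the identifiers in the table are those of NCBI and RefSeq. The strand setting of the counting is not given in the sources used here.

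The counts went into R 4.3.3 and edgeR 4.0.16, with filterByExpr, TMM factors and a quasi-likelihood test of genotype over the 6 libraries. Benjamini-Hochberg adjustment ran over all 18366 tested genes, at a threshold of 0.05. CPM are TMM-normalised counts. The deposited FPKM values served to compare genes with each other, and the deposited TPM values served in 1 alternative, as log2(TPM + 1) in limma 3.58.1. Further alternatives were limma on log2(CPM + 1), DESeq2 1.42.0, upper-quartile factors, library totals alone, a filter of 1 read in all libraries together, a filter of 10 reads in every library, the replicate number as a block, and leaving out each library. The scripts were tested on simulated counts.

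Whether equal replicate numbers pair the libraries was checked from their deviations around the genotype mean. Equal numbers gave correlations over genes of 0.294 (number 1), 0.112 (number 2) and 0.449 (number 3), each over 0.1, and unequal numbers gave -0.343 to 0.209. What the numbers mark is not stated, so the pairing rests on this check alone. Log2 CPM of replicates correlated at 0.989 or less, and no library was a copy of another.

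The 9 members and all gene lists were chosen with earlier results of these data known. The rule for named genes took the members, *ZKSCAN3*, every tested serpin, every tested gene that starts within 1 Mb of *SERPINA3*, the genes of each list past the threshold or, with none, the 2 with the highest FPKM, and the 5 genes most like *SERPINA3*. The results of a few listed genes are not reported here, and these genes were taken out of the lists and their counts. *SERPINB9P1* was added after its values were seen. Gene positions came from GENCODE genes lifted to GRCh37, matched by symbol, and promoter sequences from RefSeq on GRCh38.p14.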

Additional observations from a re-analysis of the deposited data

How the results depend on the processing

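With all libraries, 376 genes, 0 of the 9 serpins, 1 of the other serpins and 4 genes of the partner lists were called by edgeR at an FDR of 0.05. DESeq2 gave 1506 genes, 1 of the 9 serpins, 3 other serpins and 21 partner genes. *SERPINA5*, a neighbour of *SERPINA3*, is counted among the other serpins. The number of partner genes was 2 with upper-quartile factors, 1 with all genes with a read, where more genes were tested, and 8 with limma on log2(TPM + 1). With at least 10 reads in every library, *SERPINA3* and *SERPING1* were not tested and 0 other serpins passed. Leaving out 1 library gave 49 to 2858 genes, 0 to 6 of the 9 serpins, 0 to 4 other serpins and 0 to 36 partner genes, each highest without *ZK3*-KO replicate 3. The log2 fold change of *SERPINA3* ranged from -4.31 (without *ZK3*-KO replicate 3) to -1.81 (without *ZK3*-KO replicate 2) when 1 library was left out. It was -1.16 under limma on log2(CPM + 1) and -1.42 under limma on log2(TPM + 1), which shrink the differences of low genes. The median of the 14 genes near *SERPINA3* was 0.232 with library totals alone, 0.154 with at least 10 reads in every library, 0.156 with limma on log2(CPM + 1), 0.0778 with limma on log2(TPM + 1) and 0.162 with the replicate block, and 0.227 to 0.437 when 1 library was left out. It stayed above 0 in each of the 14 alternatives. The cause of these changes was not tested.

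With the replicate block, 461 genes, 0 of the 9 serpins, 1 other serpin (*SERPING1*, FDR 0.0176) and 6 partner genes were called by edgeR, and *SERPINA3* had a log2 fold change of -3.02. Of the other serpins and listed genes named in the report, *ORM2* lost its call with the block and no other call changed, and the block was not compared for single genes near or like *SERPINA3*. The share of called genes that were higher was 39.9% with TMM factors, 30.1% with library totals alone and 23.04% with limma on log2(TPM + 1), which lowered the median of all tested genes by 0.10. It was 49.0% without *ZK3*-KO replicate 3 and 19.3% to 30.4% without any other library.

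With 3 libraries per genotype from 1 clone, and with 1 *ZK3*-KO library apart from the rest, the size of most differences among the serpins rests on whether that library is counted. The log2 fold changes of *SERPINB9* and *SERPING1* did not depend on it in this way. *SERPINA3*, *SERPING1*, *SERPINC1* and *ORM2* had few reads in a genotype, and their fold changes are imprecise. For *SERPINA3*, counting error gave 0.107 to 0.345, up to 0.0532 and 0.713 to 1.21 CPM in *ZK3*-KO replicates 1, 2 and 3. These intervals do not overlap, and the cause of that spread was not tested. Read counts per gene show neither protein levels nor secretion.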

Other observations

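Serpin genes below the expression filter had few reads in these libraries. *AGT*, which encodes angiotensinogen, a member of the family that inhibits no protease, had 3, 0 and 6 reads in *ZK3*-WT and 8, 9 and 0 reads in *ZK3*-KO replicates 1, 2 and 3. *SERPINI2* had 9 reads in *ZK3*-KO replicate 3 and none in the other libraries. *SERPINB4* had 7 reads in *ZK3*-WT replicate 2 and none elsewhere, and *SERPINB12* 4 reads in that same library. *SERPINA13P*, the pseudogene next to *SERPINA3*, had 4, 3 and 0 reads in *ZK3*-WT and none in *ZK3*-KO cells. The clade A genes *SERPINA2*, *SERPINA4*, *SERPINA6*, *SERPINA9*, *SERPINA11* and *SERPINA12* of the chromosome 14 cluster had no read in any library, while *SERPINA1*, *SERPINA3* and *SERPINA5* of the same cluster were expressed. *SERPINB2*, *SERPINB3*, *SERPINB7*, *SERPINB10*, *SERPINB11* and *SERPINB13* on chromosome 18 had no read either, while *SERPINB5* and *SERPINB8* of that chromosome were expressed.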
